A study of Mus musculus with 12 samples.

Results

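The adhesion genes through which leukocytes leave the blood were followed in epididymal white adipose tissue (eWAT) of mice on 4 diets. They were the integrin subunits Itgal, Itgam, Itgb2, Itga4 and Itgb1, the selectin Selp and its ligand Selplg, and the immunoglobulin family ligands Icam1, Icam2 and Vcam1. These 10 genes were chosen by name and found by their mouse Ensembl identifiers among the 23474 genes of the table. All were male C57BL/6J mice that ate the diets from 5 weeks of age for 12 weeks and were 17 weeks old when sampled. The groups were a normal diet (ND), a high-fat diet (HFD), HFD with 0.25% (w/w) of an ethanol extract of green tea (GT), and HFD with 3% (w/w) Taeeumjowitang (TJ), a Korean herbal medicine given for obesity. Each group had 3 libraries from 10 mice fed. For the HFD and TJ groups each library came from its own mouse, and the sources used here do not say so for the ND and GT groups, whose p-values may reflect technical spread.

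Circulating leukocytes are first slowed on the vessel wall by selectins. P-selectin (Selp), shown by activated endothelium and platelets, binds PSGL-1 (Selplg) on the leukocyte. Integrins then hold the cell in place. Each is a pair of an alpha and a beta subunit. LFA-1 is Itgal with Itgb2, Mac-1 is Itgam with Itgb2, and VLA-4 is Itga4 with Itgb1. LFA-1 and Mac-1 bind ICAM-1 (Icam1), LFA-1 also binds ICAM-2 (Icam2), and VLA-4 binds VCAM-1 (Vcam1). Mac-1 marks macrophages, monocytes and neutrophils, and obese eWAT is known for its gain of macrophages.

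Expression was given as FPKM, fragments scaled by transcript length and by the mapped fragments of the library, so that levels can be set side by side between genes. Depth ran from about 9900000 to 19600000 fragments per library, as estimated from the steps between low FPKM values, and the precision of each value rests on the spread between 3 libraries. ND replicate 1 stood apart. Its 8 germ cell markers, led by Tnp1 and Tnp2, summed to 98971 FPKM against 165 and 2980 FPKM in ND replicates 2 and 3, and its 7 epididymis markers to 14709 FPKM against 10.8 and 8.63 FPKM. Its 6 adipocyte markers summed to 807 FPKM, against 8624 FPKM or more in the other ND libraries. HFD replicate 1 also held germ cell transcripts (2061 FPKM summed), and HFD replicate 2 epididymis transcripts (1275 FPKM). HFD against ND is therefore given with and without ND replicate 1. In bulk tissue, fewer cells of a type and less RNA per cell cannot be told apart.

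Of the 10 genes, Itgb2 had the widest range of levels. Itgb2 (ENSMUSG00000000290, chromosome 10 of GRCm38 from 77530252 to 77565708) encodes the beta-2 subunit that every LFA-1 and Mac-1 molecule needs. It measured 240, 177 and 258 FPKM in the HFD libraries and 0.912, 12 and 12.5 FPKM in the ND libraries. In the GT libraries it was at 162, 144 and 64 FPKM, and in the TJ libraries at 92.9, 13.2 and 79 FPKM. Each HFD library lay above each library of the other groups, the TJ libraries lay above the ND libraries, and the GT and TJ ranges overlapped. TJ replicate 2, at 13.2 FPKM, was close to the highest ND library.

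Itgam (ENSMUSG00000030786, chromosome 7 from 128062640 to 128118491) encodes the alpha subunit of Mac-1, also called CD11b. Its levels were 74.4, 65.4 and 87.6 FPKM in the HFD group, 0.603, 9.35 and 8.12 FPKM in the ND group, 52.3, 48 and 20 FPKM in the GT group and 25.9, 4.46 and 22.7 FPKM in the TJ group. The HFD libraries again lay above all others, and TJ replicate 2 lay below ND replicates 2 and 3. Itgal (ENSMUSG00000030830, chromosome 7 from 127296260 to 127335138), the alpha subunit of LFA-1, was low in every library. It ranged from 1.79 to 2.21 FPKM in the HFD group, from 0.451 to 1.86 FPKM in the ND group, from 1.85 to 2.57 FPKM in the GT group and from 1.41 to 2.92 FPKM in the TJ group, and the ranges of groups next to each other in level all overlapped. In the HFD group the mean of Itgal was 1.97 ± 0.219 FPKM (SD, n = 3) beside 75.8 ± 11.2 FPKM (SD, n = 3) for Itgam. The annotated gene Gm49368 overlaps Itgam on the same strand, so fragments there are not certain to be only those of Itgam.

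VLA-4 was followed through Itga4 and Itgb1. Itga4 (ENSMUSG00000027009, chromosome 2 from 79255426 to 79333123) was at 5.51, 8.17 and 7.42 FPKM in the HFD libraries and at 0.25, 2.19 and 1.94 FPKM in the ND libraries. It was at 4.53, 3.85 and 2.24 FPKM in the GT group and at 2.06, 0.774 and 2.45 FPKM in the TJ group, so that the HFD libraries lay above all others and the TJ and ND ranges overlapped. The gene overlaps Cerkl on the opposite strand. Itgb1 (ENSMUSG00000025809, chromosome 8 from 128685654 to 128733200), a beta subunit shared by many integrins and present on most cell types, had with Itgb2 the highest level of the 10 genes in the HFD group. It measured 227 ± 20 FPKM in the HFD group, 186 ± 1.64 FPKM in the GT group and 163 ± 42.7 FPKM in the TJ group (SD, n = 3), and 12.6, 180 and 143 FPKM in the ND libraries. The HFD libraries lay above those of GT and ND, and overlapped those of TJ, where replicate 3 had 207 FPKM.

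The selectin pair was followed through the ligand on leukocytes and the selectin of endothelium and platelets. Selplg (ENSMUSG00000048163, chromosome 5 from 113818536 to 113832644) was at 56.6, 38.8 and 53.9 FPKM in the HFD libraries and at 1.27, 6.3 and 6.41 FPKM in the ND libraries. It was at 48.5, 39.4 and 19.8 FPKM in the GT group and at 32.2, 11.3 and 26.1 FPKM in the TJ group. The TJ libraries lay below the HFD libraries and above the ND libraries, and the GT libraries overlapped both the HFD and the TJ range. Selp (ENSMUSG00000026580, chromosome 1 from 164115264 to 164150026) was at 6.46, 3.82 and 3.86 FPKM in the HFD group, 3.6, 5.62 and 3.66 FPKM in the GT group, 4.71, 2.76 and 4.57 FPKM in the TJ group and 0.087, 2.3 and 1.8 FPKM in the ND group. The ranges of the 3 groups fed HFD overlapped, and all of them lay above the ND libraries. Antisense genes overlap Selp, Icam1 and Vcam1, and it is not stated whether fragments were told apart by strand.

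The endothelial ligands did not share a pattern. Icam1 (ENSMUSG00000037405, chromosome 9 from 21015985 to 21028817), which inflammatory signals induce on endothelium and other cells, was at 13.6, 12.8 and 14.1 FPKM in the HFD group and at 0.34, 6.34 and 7.83 FPKM in the ND group. It was at 12.3, 11.4 and 9.26 FPKM in the GT group and at 10.6, 10.4 and 13.8 FPKM in the TJ group. All 9 libraries fed HFD lay above the ND libraries. Vcam1 (ENSMUSG00000027962, chromosome 3 from 116109949 to 116129688), the ligand of VLA-4, ranged from 9.73 to 10.6 FPKM in the HFD group, from 7.55 to 11 FPKM in the GT group and from 7.6 to 10.4 FPKM in the TJ group, and it was at 2.08, 6.73 and 9.76 FPKM in the ND libraries, so that all groups overlapped.

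Icam2 (ENSMUSG00000001029, chromosome 11 from 106377656 to 106388075) encodes a ligand that endothelium carries without stimulation. Its levels were 22.5, 45.9 and 30 FPKM in the TJ libraries, above all other libraries. They were 13.6, 13.5 and 13.5 FPKM in the HFD group, 16.6, 12.7 and 17.6 FPKM in the GT group and 3.84, 16.6 and 18.4 FPKM in the ND group. TJ replicate 2, in which the leukocyte integrins were lowest among the TJ libraries, was highest for Icam2.

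**Figure D1:**
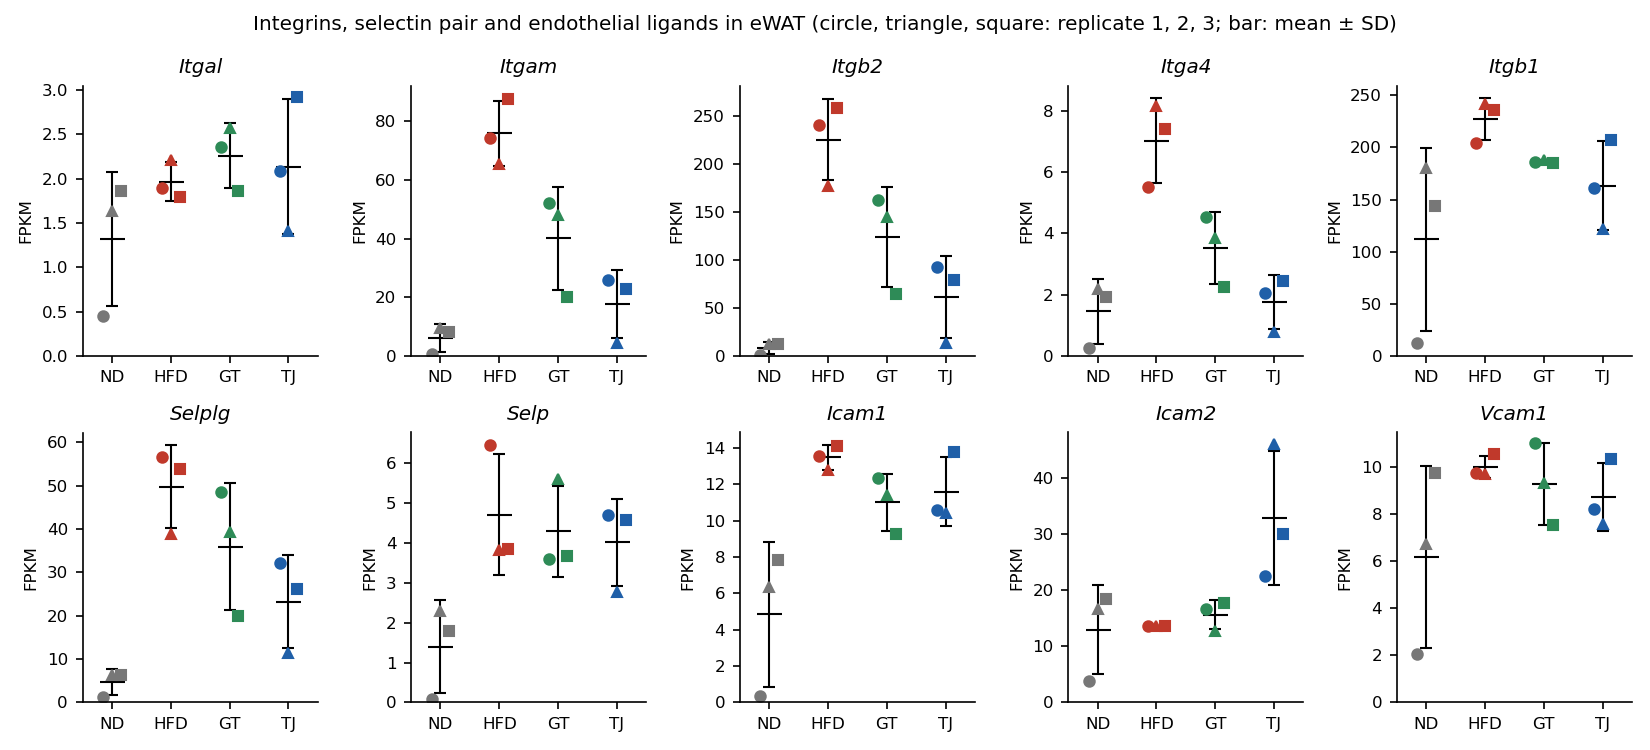
FPKM of each of the 10 genes (y axis, linear from 0) in the ND, HFD, GT and TJ groups (x axis), with a circle, triangle and square for replicates 1, 2 and 3 and a bar for the mean ± SD (n = 3). The HFD libraries stand above all others for Itgam, Itgb2 and Itga4, the TJ libraries stand above all others for Icam2, and ND replicate 1 is the lowest ND library in every panel.

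Of the 10 genes, 5 had a promoter in the RefSeq table used (GRCm38.p6). The 250 bases before the start of 3 of them are printed because Itgam and Itga4 were the members called lower with TJ and Icam1 was the endothelial ligand called higher with HFD once ND replicate 1 was left out. Capitals mark matches, on either strand, to GAGGAA (an ETS type motif of the kind PU.1 binds), GGAAATTCC (kappaB type) or TTCNNNGAA (STAT type). Each line gives a gene and its sequence from 5' to 3' on the plus strand, which is the strand of all 3 genes, at chr7:128062390-128062639 for Itgam, chr2:79255176-79255425 for Itga4 and chr9:21015690-21015939 for Icam1.
Itgam: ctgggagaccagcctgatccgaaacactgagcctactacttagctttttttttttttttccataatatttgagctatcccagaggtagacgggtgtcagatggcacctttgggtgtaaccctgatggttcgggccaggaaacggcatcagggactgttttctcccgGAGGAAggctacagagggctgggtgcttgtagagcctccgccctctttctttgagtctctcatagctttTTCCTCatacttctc
Itga4: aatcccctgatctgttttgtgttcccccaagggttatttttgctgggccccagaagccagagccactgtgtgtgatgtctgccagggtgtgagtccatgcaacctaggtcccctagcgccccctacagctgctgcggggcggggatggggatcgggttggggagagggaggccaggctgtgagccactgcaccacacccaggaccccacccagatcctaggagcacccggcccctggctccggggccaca
Icam1: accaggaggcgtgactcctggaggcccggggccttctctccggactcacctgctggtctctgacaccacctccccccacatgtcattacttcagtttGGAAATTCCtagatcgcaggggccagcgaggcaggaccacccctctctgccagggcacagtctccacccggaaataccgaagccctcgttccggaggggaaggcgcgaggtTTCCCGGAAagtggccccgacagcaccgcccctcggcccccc
Itgam held GAGGAA at positions -84 to -79 and, on the other strand, at -15 to -10, counted from -1 at the base before the start. Itgb1 held it at -9 to -4. Such a match occurred in 23.3% of the 32851 promoter windows of this length. Icam1 held GGAAATTCC at -153 to -145, found in 0.286% of windows, and TTCNNNGAA at -42 to -34, found in 7.02%. Itga4 had none of these 3 motifs. GGGCGG (Sp type) was present in Itgam, Itga4, Itgb1 and Icam1 and in 32.7% of all windows, TATAAA was in none of the 5 and in 12.4% of all windows, and Selp held none of the 5 motifs searched. A match is a description of letters and not a measured binding site.

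The first comparison asked what the high-fat diet did to these genes. With all 6 libraries, Itgb2 and Selplg were called higher in the HFD group than in the ND group (adjusted p under 0.05, with a change of 1.5-fold or more), which was 2 of 10 genes beside 1.73% of the 14430 genes tested that were called higher. The log2 fold change was 5.01 for Itgb2 (standard error 0.81, limma adjusted p = 0.0475) and 3.34 for Selplg (standard error 0.54, limma adjusted p = 0.0475). Itgam, at 3.84 (limma adjusted p = 0.0836), and Itga4, at 1.81 (limma adjusted p = 0.167), did not pass. The HFD libraries lay above all 3 ND libraries for 7 of the 10 genes, Itgb2, Itgam, Itga4, Itgb1, Selplg, Selp and Icam1, as they did for 20.5% of all genes tested. Without ND replicate 1, 5 genes were called higher, beside 11% of 13661 genes. They were Itgb2 at 4.08, Itgam at 2.97, Selplg at 2.77, Itga4 at 1.38 and Icam1 at 0.85, with limma adjusted p-values from 0.000777 to 0.02. In the same fit all 6 macrophage markers were called higher and 5 of 6 adipocyte markers lower. The count of all genes called lower in it is given with the markers below. With all 6 libraries, 2 of 6 macrophage markers were called higher, beside 1.73% of all genes, and 0 of 6 adipocyte markers in either direction. Itgb1, Selp, Vcam1 and Itgal were not called in either fit, and Icam2 was at 0.30 with and at -0.34 without this library (limma adjusted p = 0.787 and 0.123). With the replicate number as a block, 0 genes were called, and Itgb2 had a limma adjusted p of 0.109 and Selplg one of 0.12. The numbers are not shown to pair these libraries. With this block 5 of the 10 had an unadjusted p under 0.05, as they did with no block, where 11.6% of all genes had. Itgb2 and Selplg lost the call whenever ND replicate 2 or 3 or any HFD library was left out, where 0 of the 10 and at most 24 of all genes passed in limma. In those fits 4 or 5 of the 10 had an unadjusted p under 0.05, and the share over all genes was not taken. A pseudocount of 0.1 or 0.01, or no filter on low values, also left 0 of the 10 called.

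For the TJ group against the HFD group, Itgam and Itga4 fell and Icam2 rose. Itgam changed by -2.33 on the log2 scale (SE 0.57, limma adjusted p = 0.0379), from 75.8 ± 11.2 to 17.7 ± 11.6 FPKM (SD, n = 3). Itga4 changed by -1.58 (SE 0.28, limma adjusted p = 0.0248), from 7.03 ± 1.37 to 1.76 ± 0.878 FPKM (SD, n = 3). Icam2 changed by 1.16 (SE 0.24, limma adjusted p = 0.029), from 13.5 ± 0.0134 to 32.8 ± 12 FPKM (SD, n = 3). Thus 2 of 10 genes were called lower, beside 11.1% of the 12807 genes tested, and 1 higher, beside 7.41%. Itgb2, with 225 ± 42.4 and 61.7 ± 42.6 FPKM (SD, n = 3), was at -2.24 (SE 0.68, limma adjusted p = 0.0562) and Selplg at -1.17 (SE 0.37, limma adjusted p = 0.0608). Neither passed, although the TJ and HFD libraries did not overlap for either gene. TJ libraries below all HFD libraries were seen for 31.4% of all genes tested, and an unadjusted p under 0.05, which 6 of the 10 genes had, for 41.4%. The study named leukocyte extravasation among the pathways of its down-regulated genes, which came from these same libraries. The direction of the leukocyte genes is therefore not independent of that result.

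Itgb1 was at -0.50 (limma adjusted p = 0.118), Icam1 at -0.21 (limma adjusted p = 0.288) and Itgal at 0.05 (limma adjusted p = 0.867). Vcam1 was at -0.19 and Selp at -0.18, both of which turned above 0 with quantile normalization, at 0.034 and 0.067. The median of all genes tested was -0.14 in this comparison, and it moved to -0.02 with median-of-ratios scaling and to 0.03 with quantile normalization, which turned the calls over all genes from 949 higher and 1417 lower to 1285 and 1082, and to 1543 and 1151. Without TJ replicate 2 the falls were smaller, -1.60 for Itgam, -1.29 for Itga4, -1.37 for Itgb2 and -0.74 for Selplg, and Icam2 was at 0.89. These 5 genes then all passed (limma adjusted p from 0.00568 to 0.041), beside 9.53% of genes called lower and 6.19% called higher. Leaving out TJ replicate 3 gave 5 calls too, of Itgam, Itga4, Itgb2, Icam2 and Itgb1, where 3412 of all 12873 genes were called. When any HFD library or TJ replicate 1 was left out, 0 of the 10 and 0 of all genes passed in limma. In each of these fits 5 of the 10 had an unadjusted p under 0.05, beside 41.4% of all genes in the fit of all 6 libraries. None of the 10 was called in limma with no filter on low values (5 at an unadjusted p under 0.05) or with all 12 libraries in the fit (4). The share of all genes at an unadjusted p under 0.05 was not taken for these alternative fits.

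For the GT group against the HFD group, 0 of the 10 genes were called, beside 3.63% of the 12766 genes tested, and 4 of the 10 had an unadjusted p under 0.05 in limma, beside 29.3% of all genes. These were Itga4 at -0.84 (limma adjusted p = 0.0761), Itgam at -1.01 (0.119), Itgb1 at -0.28 (0.12) and Itgb2 at -0.95 (0.133), the values in brackets being limma adjusted p-values. The GT libraries lay below the HFD libraries for all 4 of these genes and for Icam1, at -0.28 (limma adjusted p = 0.175). Groups with GT apart below HFD were seen in 24.4% of all genes tested. Selplg was at -0.53 (limma adjusted p = 0.309), Icam2 at 0.18 (limma adjusted p = 0.385), and GT replicate 3 was the lowest GT library for Itgal, Itgam, Itgb2, Itga4, Itgb1, Selplg, Icam1 and Vcam1.

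The TJ and GT groups were also compared with each other. The TJ and GT comparisons above share the 3 HFD libraries, which this one leaves out. None of the 10 genes was called, beside 0.148% of the 12187 genes tested, and 2 of them, Icam2 and Itga4, had an unadjusted p under 0.05 in limma, beside 24.6% of all genes. For Icam2 the TJ libraries all lay above the GT libraries, as for 19.5% of all genes, and the difference was 0.98 on the log2 scale (SE 0.26, limma adjusted p = 0.124). Itga4 was at -0.74 (limma adjusted p = 0.188), Itgam at -1.33 (limma adjusted p = 0.226) and Itgb2 at -1.28 (limma adjusted p = 0.276), with standard errors of 0.30, 0.62 and 0.70. A difference between the supplements was therefore not detected at this number of libraries, which does not show that they act alike.

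**Figure D2:**
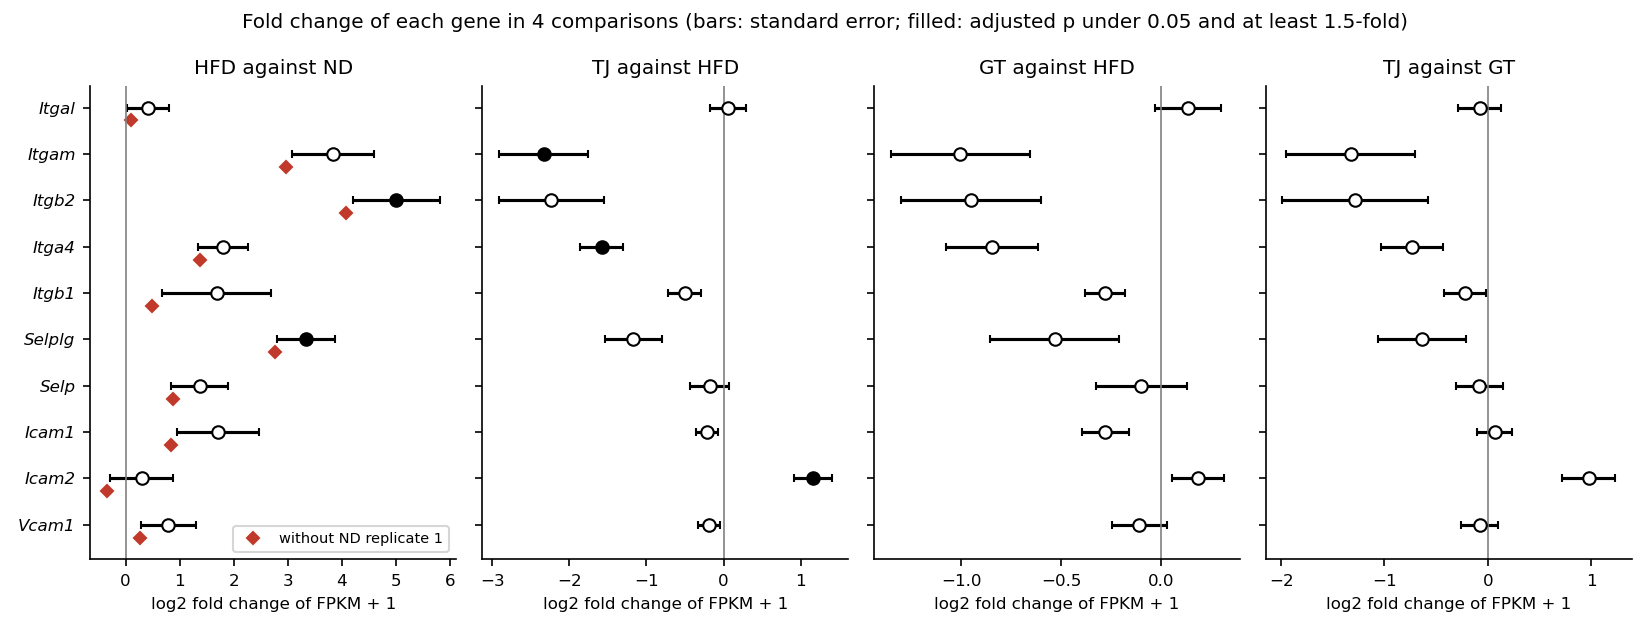
Log2 fold change of FPKM + 1 (x axis) of each of the 10 genes (y axis) in the 4 comparisons, with bars for the standard error from limma, filled points for calls and red diamonds for HFD against ND without ND replicate 1. Filled points are Itgb2 and Selplg for HFD against ND and Itgam, Itga4 and Icam2 for TJ against HFD, and the x axes differ in range.

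Macrophage and pan-leukocyte markers fell with Itgam and Itga4 in TJ against HFD. Only 3 of 6 T cell, 2 of 4 B cell and 1 of 5 neutrophil markers were high enough to be tested there, and none of them was called lower. The 6 macrophage markers, which include Adgre1, Cd68 and Csf1r, summed to 847 to 1108 FPKM in the HFD group, 274 to 648 FPKM in the GT group, 122 to 386 FPKM in the TJ group and 18.3 to 118 FPKM in the ND group. With TJ all 6 were called lower than with HFD alone, as were Ptprc, Laptm5 and Coro1a, which mark all leukocytes. The 6 T cell markers summed to 3.27 to 12.4 FPKM over all libraries, with the TJ libraries (8.13 to 12.4 FPKM) above the HFD libraries (3.27 to 4.61 FPKM), and Lck was called higher with TJ at 0.87 (limma adjusted p = 0.0432), a call lost without TJ replicate 2 (0.69, limma adjusted p = 0.092). Ms4a1, the B cell gene for CD20, was listed at 0 throughout, and the 4 B cell markers summed to 2.69 to 3.40 FPKM in the HFD group and 3.92 to 9.11 FPKM in the TJ group, with none called. Of the neutrophil markers, S100a8 was at 51.2 to 60.7 FPKM in the HFD group and 15.1 to 74.4 FPKM in the TJ group (limma adjusted p = 0.337), while Ly6g was listed at 0 in all libraries but HFD replicate 3. The 5 platelet markers summed to 1.96 to 5.30 FPKM in 11 libraries and to 54.1 FPKM in ND replicate 1, which held 35.3 FPKM of Gp1bb and 18.6 FPKM of Itga2b. Itga2b was the only platelet marker tested in TJ against HFD and was not called (0.38, limma adjusted p = 0.272), and Gp9 reached at most 0.47 FPKM. The 6 endothelial markers summed to 215 to 244 FPKM in the HFD group, 241 to 295 FPKM in the GT group and 252 to 416 FPKM in the TJ group, and none of the 6 was called in the fits with 6 libraries, while Erg was called higher with TJ once TJ replicate 2 was left out. Of 6 adipocyte markers, 5 were called higher with TJ than with HFD alone, and of 5 fibroblast and progenitor markers 3 were called lower, as was Wt1 of the mesothelial markers, where 7.41% of all genes were called higher and 11.1% lower. In GT against HFD, 3 of the 6 adipocyte markers were called higher, 2 of the 5 fibroblast and progenitor markers lower and 0 of the 6 macrophage markers, beside 3.63% of all genes called in either direction. In HFD against ND without ND replicate 1, all 6 macrophage and all 3 pan-leukocyte markers and S100a8 were called higher, as were Lum, Col1a1 and Pi16 of the fibroblast and progenitor markers, Pdgfrb of the pericyte markers and the adipocyte gene Lep, beside 11% of all genes. The other 5 adipocyte markers were called lower there, among them Pck1 at -3.05 and Adipoq at -1.19, as were 3 of 5 mesothelial markers, where 593 of 13661 genes were called lower, while none of the 6 endothelial markers was called. With all 6 libraries, only Cd68 and Fcgr1, 2 of the 6 macrophage markers, were called higher, beside 1.73% of all genes. No marker of the other cell types was called in that fit. The part of the markers in the members' changes was not tested.

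Set against these markers, the members differed from each other. Itgam divided by Ptprc, the gene for the pan-leukocyte antigen CD45, was 0.993 to 1.26 in the HFD libraries, 0.929 to 1.26 in the GT libraries and 0.592 to 0.929 in the TJ libraries, so that TJ lay below HFD on this scale too. Itga4 divided by Ptprc overlapped between HFD (0.092 to 0.124) and TJ (0.0738 to 0.103), with a two-sided exact permutation p of 0.2. Itgb2 divided by Ptprc was 2.69 to 4.01 in the HFD group and 1.75 to 3.33 in the TJ group, which overlapped, and 0.891 to 1.66 in the ND group, below all libraries fed HFD. Itgal divided by Ptprc ran the other way, from 0.0259 to 0.0336 in the HFD group, 0.0499 to 0.0862 in the GT group, 0.0747 to 0.187 in the TJ group and 0.121 to 0.821 in the ND group. Between HFD and TJ this ratio changed mainly through its divisor. Itgal had means of 1.97 and 2.14 FPKM there, beside 65 and 21.9 FPKM of Ptprc. The ND value of 0.821 is that of replicate 1, with 0.451 FPKM of Itgal and 0.549 FPKM of Ptprc. Selplg divided by Ptprc overlapped between HFD (0.59 to 0.945) and TJ (0.859 to 1.5).

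For the endothelial ligands, the divisor was the geometric mean of Pecam1, Cdh5 and Tie1. Icam1 on this scale was 0.237 to 0.284 in the HFD group, above the ND (0.113 to 0.15), GT (0.138 to 0.211) and TJ libraries (0.146 to 0.184). Icam2 was 0.319 to 0.683 in the TJ group, above the HFD (0.251 to 0.272) and GT libraries (0.21 to 0.284). The ND libraries, at 1.27, 0.392 and 0.334, also lay above those of HFD and GT, and replicates 2 and 3 fell inside the TJ range. Vcam1 was 0.11 to 0.143 in the TJ group against 0.18 to 0.213 in the HFD group, and the GT libraries overlapped both. Selp overlapped between HFD (0.0708 to 0.123) and TJ (0.0411 to 0.0819). Over 13 such ratios and 4 comparisons, the smallest two-sided exact permutation p was 0.1, the lowest that 3 libraries against 3 allow, and the smallest Benjamini-Hochberg adjusted p was 0.226. Tek, Kdr and Erg were not part of the endothelial divisor, and for Icam2 the order of groups depends on that choice. In TJ replicate 3, Icam2 was at 30 FPKM beside 52.1 FPKM of Kdr. In HFD replicate 3 it was at 13.5 FPKM beside 19.7 FPKM, so TJ and HFD overlap with Kdr alone as divisor. With Tek alone, ND and HFD overlap (16.6 beside 20.5 FPKM in ND replicate 2, 13.6 beside 15.3 FPKM in HFD replicate 1).

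**Figure D3:**
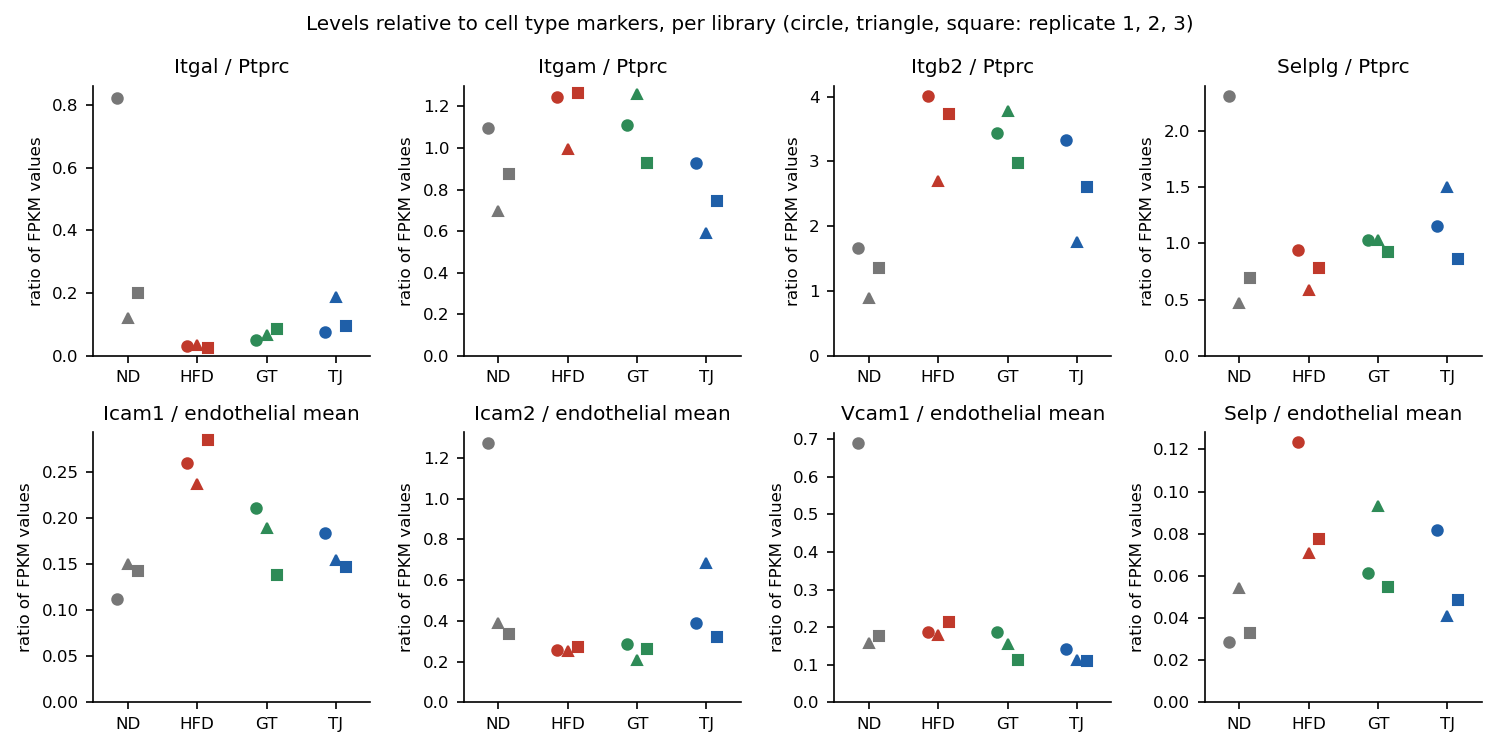
FPKM of 8 genes divided by that of Ptprc (upper row) or by the geometric mean of Pecam1, Cdh5 and Tie1 (lower row), with 1 point per library and the groups on the x axis. Itgal relative to Ptprc is lowest in the HFD group, Icam1 relative to the endothelial markers is highest there, and Icam2 relative to the same markers has its 3 TJ points and its 3 ND points above those of HFD and GT.

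Ratios of paired subunits varied between libraries, and no group difference in them had a Benjamini-Hochberg adjusted p below 0.226 (exact permutation test). For Itgb2 over its alpha subunits, the HFD and TJ ranges overlapped (two-sided exact permutation p = 0.2). Itgb2 divided by the sum of Itgal, Itgam, Itgax and Itgad, the alpha subunits it pairs with, was 1.1 to 1.27 in the HFD group, 1.29 to 1.34 in the GT group, 1.15 to 1.39 in the TJ group and 0.902 and 0.922 in ND replicates 2 and 3, with 0.0631 in ND replicate 1. Itgb1 exceeded Itga4 29.5-fold to 37.1-fold in the HFD group, 41.1-fold to 82.4-fold in the GT group and 78.2-fold to 157-fold in the TJ group. The ND libraries, at 50.5-fold to 82.3-fold, lay above HFD and overlapped GT and TJ.

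A wider set of 62 genes in 6 lists covered the rest of the adhesion cascade. In TJ against HFD, 50 of them were tested, 22 were called lower and 4 higher (11.1% and 7.41% over all genes tested), and the median log2 fold change was -0.58 beside -0.14 for all genes tested. Without ND replicate 1, HFD against ND had 22 called higher, beside 11% of all genes, and 1 lower of 50 tested, with a median of 0.54 beside -0.02 for all genes, where all 6 libraries gave 5 higher, beside 1.73% of all genes, and 0 lower of 51. In GT against HFD, Fn1 and Cd34 were called lower and none higher, of 51 tested, beside 3.63% of all genes called in either direction. In TJ against GT, 0 of 50 were called, beside 0.148% of all genes.

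The other integrin subunits had 6 called lower and 0 higher of 10 tested for TJ against HFD, beside 11.1% and 7.41% of all genes. The largest falls were in Itgad, at -2.58, and Itgax, at -2.41, which encode CD11d and CD11c, the remaining partners of beta-2 (limma adjusted p = 0.0264 and 0.0414). Itgax was at 102, 77.8 and 127 FPKM in the HFD libraries and at 36.1, 5.41 and 28 FPKM in the TJ libraries, against 0.159, 2.23 and 3.28 FPKM in the ND libraries. Itgav, Itga9, Itga5 and Itgb3, which bind matrix proteins and are not limited to leukocytes, fell by 1.23, 0.96, 0.94 and 0.84 on the log2 scale. Itga6 was highest, at 0.05, and not called.

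Of 12 genes for the inside-out activation of integrins, 8 were called lower and 1 higher in TJ against HFD, beside 11.1% and 7.41% of all genes, or 6 lower and 1 higher with median-of-ratios scaling. Fermt3, the kindlin of blood cells that binds beta tails, fell by 1.67, talin 1 (Tln1) by 0.90, Apbb1ip, which links Rap1 to talin, by 1.59, Fyb by 2.22 and the exchange factor Dock2 by 2.08 on the log2 scale. Rasgrp2, an exchange factor for Rap1, was called higher at 0.83. Without ND replicate 1, 9 of the 12 were called higher in HFD against ND, beside 11% of all genes, with Dock2 at 3.06, Fermt3 at 2.80 and Vav1 at 2.66. With all 6 libraries only Dock2 and Fermt3 were, 2 of the 12 beside 1.73% of all genes. Fyb and Vav1 were at 52.5 and 12.5 FPKM in ND replicate 1 and at 1.72 to 2.71 FPKM in the other ND libraries.

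Among other selectins and their ligands, Sele, the gene for E-selectin, reached at most 0.253 FPKM and was not tested. Cd44, which binds hyaluronan and can carry selectin ligands, fell by 2.58 on the log2 scale in TJ against HFD (limma adjusted p = 0.0346), Cd34 by 1.09 and Glg1 by 1.23, and Podxl was called higher at 0.71. The sugar-transferring enzyme Gcnt1, which builds a branch of the sugars on PSGL-1, was the only called gene of 6 tested in its list, at -1.83 in TJ against HFD and at 2.53 in HFD against ND without ND replicate 1. Fut7, needed for the sugars that selectins bind, was at 1.45 to 2.23 FPKM in the HFD libraries and at 0.47 to 1.16 FPKM in the TJ libraries, and was not called (limma adjusted p = 0.137).

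Other ligands and junction genes moved in both directions. Fn1, the gene for fibronectin and a matrix ligand of VLA-4, was at 152, 126 and 128 FPKM in the HFD group and 41.8, 31.3 and 43.3 FPKM in the TJ group, which differed by -1.78 on the log2 scale (limma adjusted p = 0.0196), and was at -0.88 in GT against HFD (limma adjusted p = 0.0379). The tight junction gene F11r (JAM-A, a ligand of LFA-1) and Esam were called higher in TJ against HFD, at 1.09 and 0.78. Of 12 genes acting at the junction, 3 were called lower, beside 11.1% of all genes, Sirpa at -1.70, Actn1 at -1.29 and Arhgap4 at -0.60, or 2 with median-of-ratios scaling. Arhgap4 fell short of a 1.5-fold change without TJ replicate 2, at -0.50, and Cdh5 was the highest at 0.44 and not called. Icam4, Icam5 and Madcam1 were under 1 FPKM in every library.

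**Figure D4:**
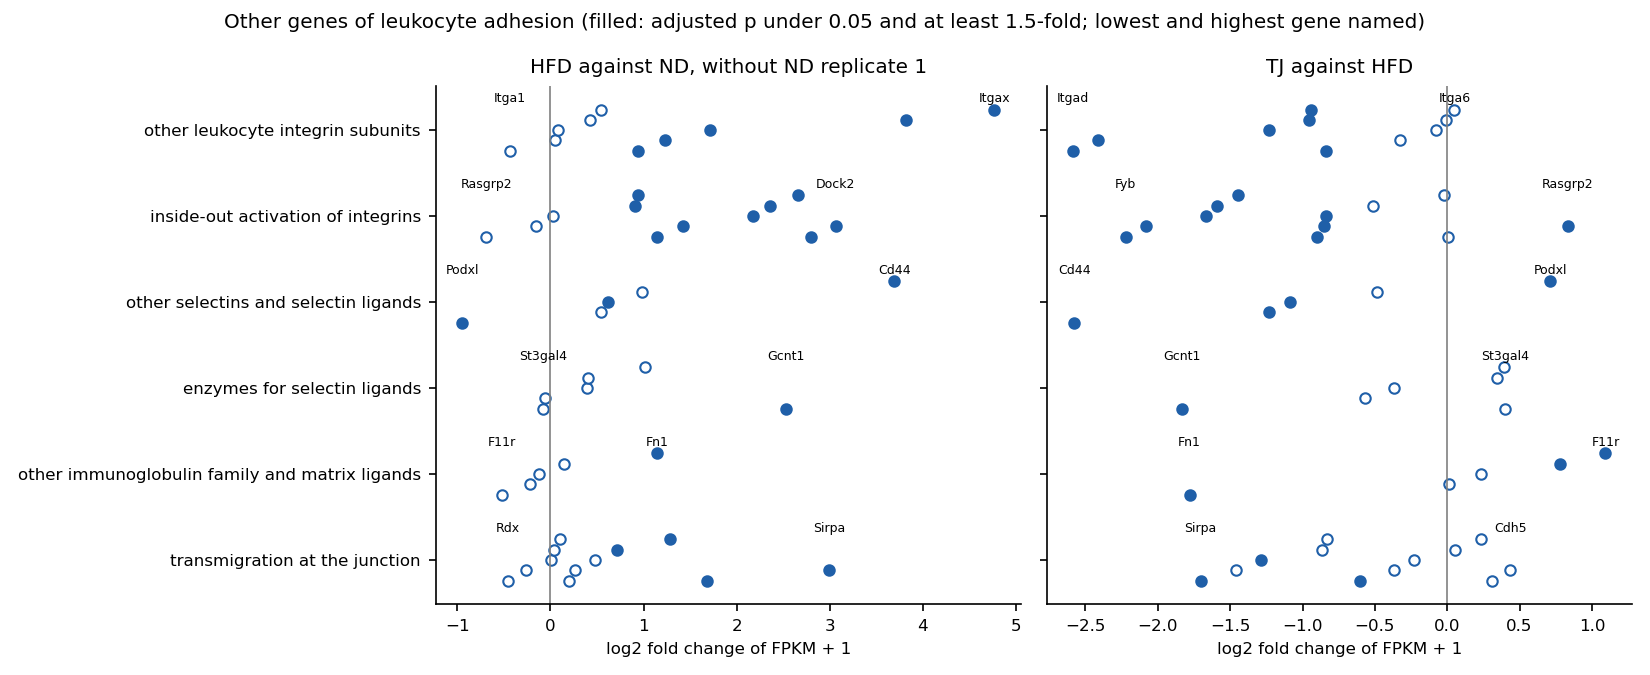
Log2 fold change of FPKM + 1 (x axis) of the genes tested in the 6 lists (y axis) for HFD against ND without ND replicate 1 and for TJ against HFD, with 1 point per gene, filled where called. In TJ against HFD the points of the integrin and activation lists lie mostly below 0, from Itgad at -2.58, and F11r, Rasgrp2 and Podxl lie above 0.

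The genes whose log2(FPKM + 1) followed each member most closely over the 12 libraries are given as a description, since the libraries share groups and ND replicate 1 was low for all members. Among 13935 genes, Itgb2 was closest to Cd300lb and Laptm5 (Pearson correlation 0.998 and 0.997), Itgam to Cybb and Ptafr (0.997 and 0.996), and Selplg to Irf5 and Tifab (0.997 and 0.997). These correlations stayed at 0.994 or above over the 11 libraries without ND replicate 1. Itga4 was closest to Mctp1 and Capza1 (0.988 and 0.986, or 0.983 and 0.979 over 11 libraries) and Itgb1 to Tmem123 and Rnf13 (0.997 and 0.997, or 0.970 and 0.945). Icam2 was closest to Dapk2 and Adcy4 (0.988 and 0.973, or 0.973 and 0.949 over 11 libraries). For Icam1, Map2k1 and Tars came first (0.992 and 0.992, or 0.929 and 0.92), for Vcam1 Camta2 and Ssh3 (0.987 and 0.985, or 0.92 and 0.89), for Selp Cd74 and Col6a2 (0.963 and 0.961, or 0.874 and 0.874), and for Itgal Efnb2 and ENSMUSG00000096603, which has no symbol in the table used (0.977 and 0.955, or 0.938 and 0.832).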

How the data were processed

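Total RNA of eWAT was sequenced in 12 libraries, 3 for each of the ND, HFD, GT and TJ groups. The deposited values are FPKM, which the authors computed with Cufflinks 2.1.1 on the Ensembl release 72 annotation, with noncoding regions masked, weighting of multireads and a fragment bias correction. The methods name STAR and the human genome, the submitters' processing notes give STAR 2.4.0, and all identifiers are mouse identifiers. The authors called genes from counts, which were not analysed here. The library kit is not stated to keep strand, so genes that overlap on opposite strands may share fragments.

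Names and coordinates came from GENCODE mouse release 21 (GRCm38), which named 22671 of 23474 identifiers. Depth was estimated from low values of FPKM times transcript length (2315 genes that have 1 transcript, 1500 nt or longer). For each comparison, limma 3.58.1 (R 4.3.3; eBayes, trend on) was run on log2(FPKM + 1) of the 6 libraries of the 2 groups for genes averaging 1 FPKM or more, with Benjamini-Hochberg adjustment over all of them. Fold changes on this scale understate those of low genes. A call needed an adjusted p under 0.05 and a change of 1.5-fold or more. Ratios were tested with exact permutation tests in scipy 1.17.1. The fits were tested on simulated data. Alternatives were other pseudocounts, filters and scalings, all 12 libraries in the fit, a replicate block, array weights, no trend and each library left out. All 10 members, genes called or at the ends of the other lists and the 2 genes closest to each member were to be named, and not every gene of this rule is. Members and lists were chosen with earlier results of these data known.

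Same-numbered HFD and ND libraries deviated together from their group means over genes (correlations 0.55, 0.34 and 0.12), and the block fit treated them as pairs. These correlations do not establish pairs. Neither the paper nor the labels say what a number shares, and HFD replicate 3 and ND replicate 2 reached 0.63. HFD replicate 1 and ND replicate 1, at 0.55, both held germ cell transcripts (2061 and 98971 FPKM summed). The numbers of the other comparisons were not taken to pair. The values of 1 gene of the lists are not reported here.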

Additional observations from a re-analysis of the deposited data

How the results depend on the processing

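With 17 alternatives each for HFD against ND and TJ against HFD, and 16 for each of the others, the number of the 10 members called depended on the settings. The calls over all genes in the same fit are given in brackets. For HFD against ND it was 2 in the fit reported (255 of 14430), 0 with a pseudocount of 0.1 (126) or 0.01 (111), with no filter (190 of 20492) and with the replicate block (0), 4 with all 12 libraries (1131), 7 with array weights (6057) and 0 to 5 with each library left out (0 to 2098). It was 5 without ND replicate 1 with median-of-ratios scaling (1697 of 13661), which was chosen after seeing the data. For TJ against HFD it was 3 in the fit reported (2366 of 12807), 0 with no filter (382 of 20343) and with all 12 libraries (1), 5 with quantile normalization (2694), with the replicate block (1198) and with array weights (1901), and 0 to 5 with each library left out (0 to 3412). Without HFD replicate 1 and TJ replicate 2 together, added after seeing the data, it was 4 (2598 of 12435). For GT against HFD and TJ against GT it was 0 under every alternative, including each library left out (0 to 0), except 3 with array weights (1589 of 12766 and 1659 of 12187), whose estimation stopped before its tolerance was reached. With no filter and with all 12 libraries the cause was not tested.

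Over all genes, calls ran from 0 to 6057 for HFD against ND (255 in the fit reported), 0 to 3412 for TJ against HFD (2366), 1 to 1589 for GT against HFD (464) and 4 to 1659 for TJ against GT (18). In GT against HFD, 233 higher and 231 lower calls became 399 and 145 with median-of-ratios scaling and 405 and 162 with quantile normalization, as the median of all genes moved from -0.12 to -0.01 and 0.03.

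For TJ against HFD, the replicate block left Itgb2 and Selplg called (limma adjusted p = 0.0412 and 0.0391) beside the 3 reported. The numbers do not pair these libraries (correlations -0.03, -0.05 and 0.23), nor those of GT and HFD (0.20, 0.05 and -0.07) or TJ and GT (0.37, -0.21 and -0.08), where the block changed no call of a member.

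Directions turned only for members that were not called. Icam2 in HFD against ND was at -0.40 with array weights, at -0.39 without ND replicate 1 with median-of-ratios scaling, and from -0.34 (without ND replicate 1) to 0.66 with each library left out. In TJ against HFD, quantile normalization gave 0.034 for Vcam1 and 0.067 for Selp, Selp was at 0.22 without HFD replicate 1 and TJ replicate 2, and with each library left out Selp ran from -0.29 to 0.027 (above 0 without HFD replicate 1 or TJ replicate 2) and Itgal from -0.12 (without TJ replicate 3) to 0.23. In GT against HFD, median-of-ratios scaling gave 0.0083 for Vcam1 and 0.0087 for Selp, quantile normalization 0.049 and 0.088, array weights -0.082 for Icam2 and 0.35 for Selp, and with each library left out Vcam1 ran from -0.23 to 0.018 (above 0 without GT replicate 3) and Selp from -0.27 to 0.11 (above 0 without HFD replicate 1). In TJ against GT, array weights gave -0.082 for Icam1, and with each library left out Icam1 ran from -0.052 to 0.15, Vcam1 from -0.21 to 0.040, Selp from -0.19 to 0.11 and Itgal from -0.25 to 0.099.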
